A study of Homo sapiens with 24 samples.

Results

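Described here are 39 genes that serve the endoplasmic reticulum (ER): the regulators of its unfolded protein response, the chaperones, lectins and disulfide enzymes that fold new proteins in it, the parts that degrade misfolded ones, and the channel and enzymes through which proteins enter it. They were listed by name and function, with earlier results of these data known. All 39 were found among the 63241 gene identifiers of the untreated table and the 36741 of the MPP+ table, and all 39 reached 1 TPM (a relative transcript abundance, corrected for transcript length) in at least 3 libraries of each table. Polyadenylated RNA was sequenced from cells labelled SH-SY5Y, a human neuroblastoma line, in 8 groups of 3 libraries. The untreated groups carried a scrambled short hairpin RNA (shScramble), a hairpin against MCART1 (shMCART1), a control overexpression construct (oeNC) or an MCART1 overexpression construct (oeMCART1). Each of these 4 also had a group given 0.5 mM MPP+, an inhibitor of respiratory complex I, for 24 h. SLC25A51, the mitochondrial NAD+ carrier, is the current symbol of MCART1. The labels do not give the promoter or vector of the constructs, how many hairpins were used, or whether cells were pooled or cloned. They also do not say where replicates came from, so the p-values reflect the spread between these libraries, which may be technical.

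Proteins destined for secretion or for membranes enter the ER through the SEC61 channel, lose their signal peptide to the signal peptidase complex, and fold with the help of the Hsp70 chaperone BiP (HSPA5), the Hsp90 chaperone GRP94 (HSP90B1), the lectins calnexin and calreticulin and the protein disulfide isomerases. When unfolded proteins accumulate, the sensor IRE1 (ERN1) splices XBP1 mRNA, ATF6 is cut in the Golgi to release a transcription factor, and the kinase PERK slows translation. XBP1 and ATF6 bind ER stress elements in the promoters of many of the genes described here. The deposited values are per gene, so the spliced form of XBP1, the cleavage of ATF6 and protein levels were not measured.

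The cell label was checked against 8 markers of sympathoadrenal neuroblastoma. The transcription factor PHOX2A and DBH, the enzyme that makes noradrenaline, reached at most 0.09 and 0.07 TPM in the 12 untreated libraries and were not analysed in the MPP+ table. TH, the rate-limiting enzyme of catecholamine synthesis, reached at most 0.04 TPM in any of the 24 libraries, and STMN2 at most 1.85 TPM. HAND2 (1.39 to 4.44 TPM), GATA3 (3.85 to 7.24), ISL1 (1.68 to 4.80) and CHGA (0.82 to 4.73) were detected at low levels. The levels of PHOX2A, DBH and TH therefore go against the label, the growth protocol names HEK293T beside SH-SY5Y, and no other name is given to the cells here. Against its own control SLC25A51 followed the construct labels: it was 10.95 ± 0.382 TPM in shScramble and 7.28 ± 2.02 in shMCART1, 31.6 ± 3.48 in oeNC and 683 ± 12.3 in oeMCART1 (mean ± SD, n = 3, here and below). Under MPP+ it was 7.91 ± 0.899, 5.33 ± 0.423, 8.49 ± 0.837 and 936 ± 69.0 TPM in the same order. The knockdown was thus partial (log2 change -0.56 ± 0.14 SE untreated and -0.49 ± 0.093 SE under MPP+). Without MPP+ it had a limma adjusted p of 0.0195, and stayed under 0.05 in 3 of 6 fits that left out 1 library. In a fit of only the 2 groups the adjusted p was 0.0721. The 2 controls were far apart in SLC25A51 without MPP+ (10.95 and 31.6 TPM) and close under it (7.91 and 8.49 TPM). Between 13022 and 14306 genes reached 1 TPM in a library, and replicates of a group correlated at 0.9697 to 0.9882.

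The DNA elements through which XBP1 and ATF6 act are shown first, because they tie the regulators to their targets. RefSeq windows (GRCh38.p14) from 250 bases before to 50 after the transcription start were matched by symbol for 36 of the 39 genes, and none was printed or searched for DERL1, PDIA3 and SPCS1. The ER stress element, CCAAT and CCACG with any 9 bases between them, searched on both strands, stood in the window of 9 of these 36 genes (25.0%) and of 25 of all 27305 genes with a window (0.092%). Those with it were CALR, CANX, CRELD2, ERO1B, HSP90B1, HSPA5, PDIA6, SERP1 and XBP1. One such stretch per gene follows, read 5′ to 3′ on the strand that matches, with the fixed bases in capitals and the spacer in lower case. It lay 66 to 48 bases before the start in HSPA5, 52 to 34 before it in XBP1 and 194 to 176 before it in HSP90B1, which held another on the opposite strand.
HSPA5: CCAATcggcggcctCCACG
HSP90B1: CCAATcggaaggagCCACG
XBP1: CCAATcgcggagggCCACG
PDIA6: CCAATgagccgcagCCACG
CALR: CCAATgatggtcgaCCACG
CANX: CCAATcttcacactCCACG
CRELD2: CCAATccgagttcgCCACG
ERO1B: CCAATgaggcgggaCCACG
SERP1: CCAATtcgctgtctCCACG
CANX carried the same letters in the windows of 3 annotated starts.

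The shorter form, ATTGG and CCACG with any 1 base between them, stood in the windows of 3 other members (8.3%) and of 19 of all genes (0.07%). Its letters in these 3, with the fixed bases in capitals, were as follows.
HERPUD1: ATTGGgCCACG
HYOU1: ATTGGaCCACG
SDF2L1: ATTGGtCCACG
The XBP1-binding core TGACGTGG, whose opposite strand holds the CCACG of both other motifs, stood in DNAJC10, HYOU1, SSR3 and TXNDC5 (11.1%, against 0.927% of all genes). With any of the 3 motifs there were 15 members (41.7%, against 1.08% of all genes). The list was built from known members of this response, so the share is a property of the list and not a result of the libraries. A match of letters is not a shown binding site.

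The whole HSPA5 window (chr9:125241294-125241593, minus strand), which ends 50 bases into the transcript, is printed because HSPA5 is the gene whose change differed most between the untreated and MPP+ knockdown. Capitals mark the ER stress element.
HSPA5: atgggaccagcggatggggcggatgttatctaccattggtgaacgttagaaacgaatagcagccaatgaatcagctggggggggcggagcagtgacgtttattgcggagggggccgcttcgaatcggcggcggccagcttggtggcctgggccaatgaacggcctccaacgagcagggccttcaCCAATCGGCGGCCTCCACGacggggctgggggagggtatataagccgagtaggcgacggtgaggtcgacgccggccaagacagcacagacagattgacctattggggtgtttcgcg
The XBP1 window that holds an element (chr22:28800520-28800819, minus strand) is shown for comparison, since XBP1 is both a regulator and a member with the element.
XBP1: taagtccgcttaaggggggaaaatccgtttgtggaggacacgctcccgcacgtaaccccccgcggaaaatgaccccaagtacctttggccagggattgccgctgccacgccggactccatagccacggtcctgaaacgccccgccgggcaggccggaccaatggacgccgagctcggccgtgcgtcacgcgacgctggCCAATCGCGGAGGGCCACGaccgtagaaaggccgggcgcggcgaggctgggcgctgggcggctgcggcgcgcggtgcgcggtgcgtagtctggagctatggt

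In levels, per transcript length, the 39 genes spanned a wide range. In untreated shScramble cells calreticulin (CALR, a calcium-binding lectin of the ER lumen) was highest at 917 ± 61.6 TPM, followed by the channel subunit SEC61G at 668 ± 20.3 and the disulfide isomerase P4HB at 516 ± 34.0. The lowest were ERO1B, an oxidase that recharges the isomerases, at 3.57 ± 0.171 TPM, the sensor ERN1 at 3.62 ± 0.556 and DNAJB9, a BiP cochaperone, at 4.01 ± 0.634, and these 3 do not differ beyond their spread. The summed level of all 39 was 6857 ± 88.5 TPM in shScramble, 6221 ± 357 in shMCART1, 6593 ± 493 in oeNC and 7825 ± 77.04 in oeMCART1. Under MPP+ the sums were 4408 ± 142, 4255 ± 53.4, 3650 ± 53.3 and 5251 ± 77.5 TPM in the same order. In both tables the oeMCART1 libraries held the highest sums, and under MPP+ the oeNC libraries held the lowest, below all shScramble libraries.

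The 2 controls were not alike. Without MPP+ the mean level of 28 of the 39 genes was higher in shScramble than in oeNC, and under MPP+ that of 37, with every shScramble library above every oeNC library for 31 genes and below it for 1. A gene can therefore be lower in shMCART1 than in its own control and still be level with the other control, and such cases are named below. In the plot of all 39 genes by library this shows as a blue block for oeNC under MPP+ beside pale red for shScramble. Counts that set the 2 controls side by side, here and below, were made for the 39 only. Whether all genes differ between the controls in the same way is therefore not shown.

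**Figure D1:**
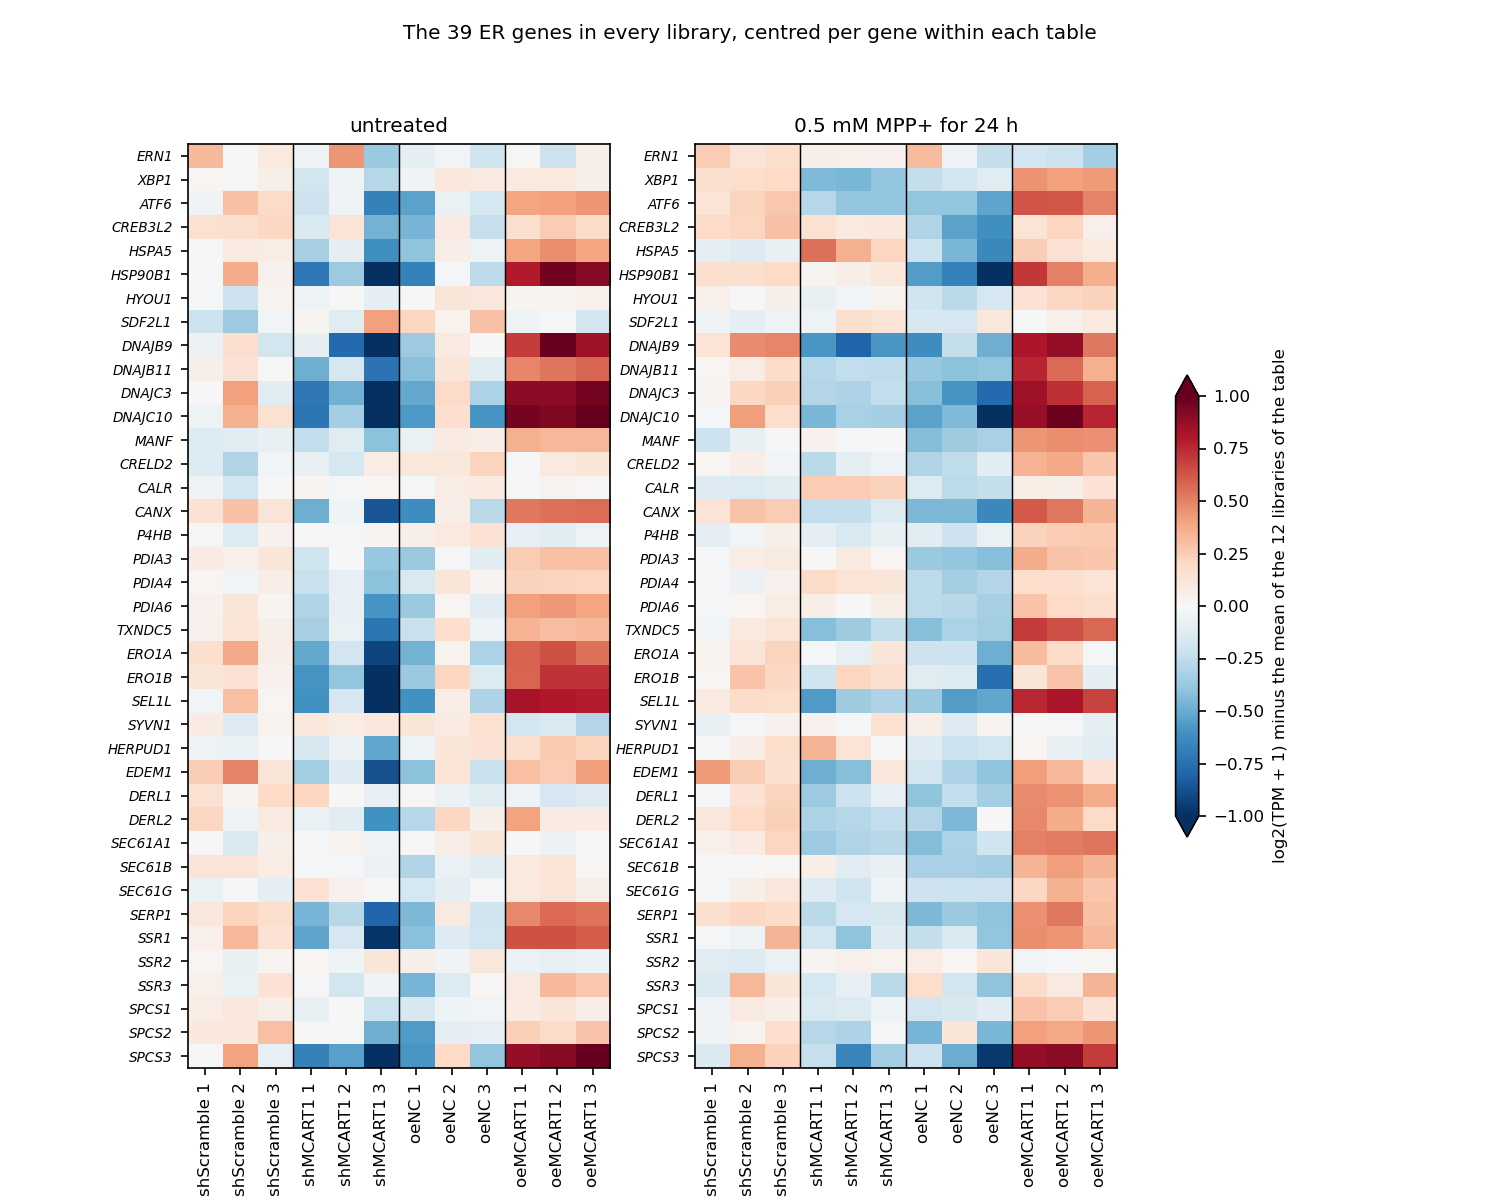
Level of each of the 39 genes (rows) in every library (columns), as log2(TPM + 1) minus the gene's mean over the 12 libraries of its table, untreated on the left and 0.5 mM MPP+ for 24 h on the right; the colour scale ends at -1 and 1. The oeMCART1 libraries are red for most genes in both tables, and shMCART1 replicate 3 is the bluest untreated library.

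The untreated and MPP+ tables were scaled separately and list different genes, so levels with and without MPP+ are given side by side and were not tested. For most of the 39 genes the level under MPP+ was the lower one: all 3 MPP+ libraries lay below all 3 untreated ones for 30 of 39 genes in shScramble, 22 in shMCART1, 29 in oeNC and 30 in oeMCART1. The median ratio of the MPP+ to the untreated level was 0.716, 0.745, 0.629 and 0.749 in that order. Neither the counts nor the ratios were taken over all genes, so whether the 39 differ in this from other genes is not known. SDF2L1, a part of a chaperone complex, had the lowest ratio in 4 of the 4 constructs (0.325 in shScramble, 0.289 in shMCART1, 0.248 in oeNC and 0.325 in oeMCART1). For 2 of the 4 regulators the level under MPP+ was the higher one. ERN1 was 3.62 ± 0.556 TPM without and 6.97 ± 0.347 with MPP+ in shScramble, and ATF6 21.0 ± 2.48 and 35.3 ± 1.67, and for these 2 genes the libraries did not overlap in any of the 4 constructs. XBP1 was 194 ± 3.35 TPM without and 253 ± 3.06 with MPP+ in shScramble and 202 ± 3.44 and 301 ± 4.03 in oeMCART1, but 170 ± 14.6 and 166 ± 3.99 in shMCART1 and 198 ± 10.9 and 197 ± 7.97 in oeNC. HSPA5 was 320 ± 10.5 TPM without and 172 ± 3.38 with MPP+ in shScramble, 283 ± 45.8 and 137 ± 20.9 in oeNC and 412 ± 11.3 and 207 ± 11.1 in oeMCART1. In shMCART1 it was 244 ± 43.5 and 241 ± 28.9 TPM, so only there did the untreated and MPP+ libraries overlap for HSPA5.

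**Figure D2:**
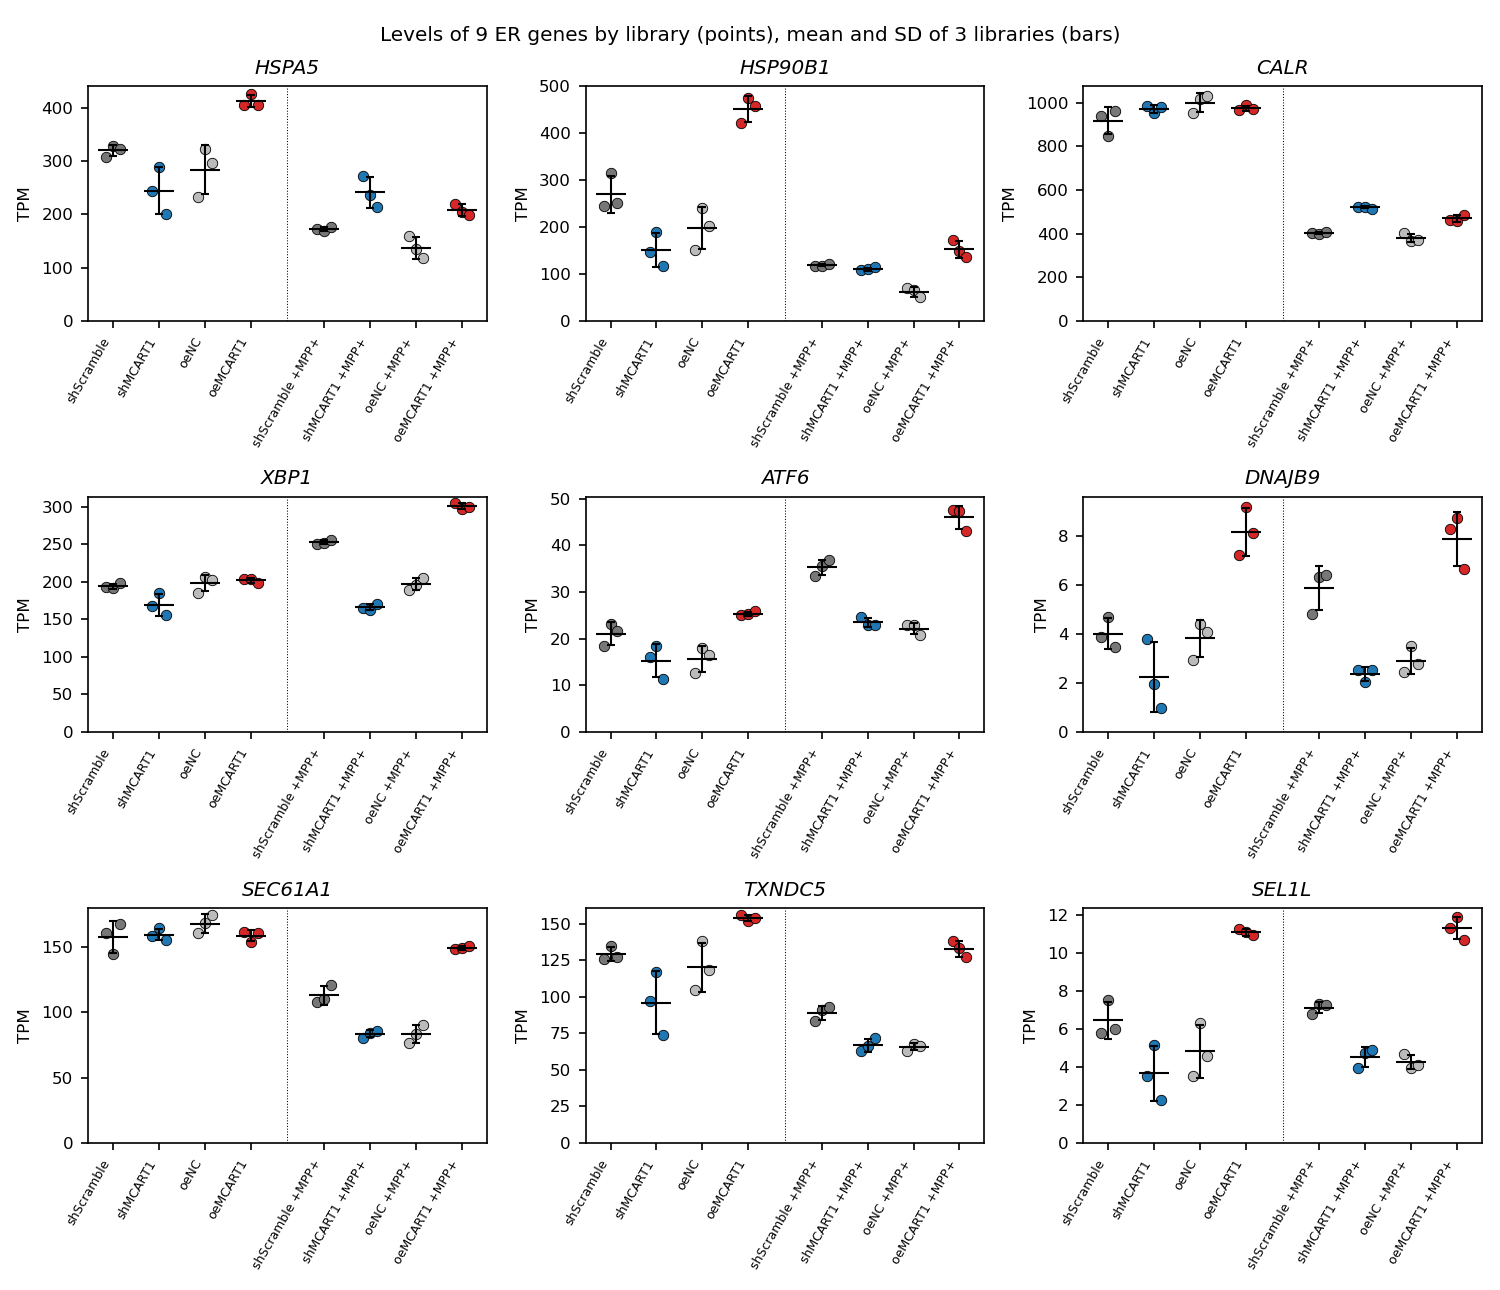
Levels of 9 ER genes in TPM (y axis, from 0) for each of the 8 groups (x axis), with 1 point per library and bars for the mean and SD of 3 libraries; the dotted line separates the tables without and with MPP+, which were scaled separately. BiP (HSPA5) is higher in shMCART1 than in shScramble under MPP+ and lower without it.

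Knockdown without MPP+ was compared first. Of the 39 genes, 16 were lower in shMCART1 than in shScramble and 0 higher (limma, adjusted p under 0.05 over 14703 genes; 22 lower and 1 higher at an unadjusted p under 0.05). Of all genes tested, 34.2% were called, 25.6% lower and 8.64% higher, and the median log2 change was -0.33 for the 39 and -0.15 for all genes. An unadjusted limma p under 0.05, in either direction, was reached by 7192 of all 14703 genes. The changed genes were chaperones and cochaperones (5 of 10), disulfide enzymes (5 of 7), degradation genes (2 of 6), translocation genes (3 of 10) and 1 of 2 lectins, while 0 of the 4 regulators passed the test.

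HSPA5 read 308, 328 and 323 TPM in the shScramble libraries and 244, 288 and 201 in shMCART1 (log2 change -0.40 ± 0.13 SE, limma adjusted p = 0.0358). HSP90B1 read 244, 315 and 250.8 TPM and then 147, 189 and 117 (-0.85 ± 0.18 SE, adjusted p = 0.0148). For both chaperones the groups did not overlap, and the third shMCART1 library was the lowest. ERO1B read 3.62, 3.71 and 3.38 TPM in shScramble and 1.83, 2.23 and 1.04 in shMCART1 (-0.78 ± 0.18 SE, adjusted p = 0.0161). The related oxidase ERO1A read 19.5, 22.8 and 18.2 TPM and then 11.9, 15.04 and 8.69 (-0.74 ± 0.18 SE, adjusted p = 0.0166). SERP1, which stabilises membrane proteins at the SEC61 channel, read 39.7, 43.0 and 41.5 TPM and then 26.4, 30.02 and 20.7 (-0.68 ± 0.14 SE, adjusted p = 0.0144). Both oxidases and SERP1 were lower in every shMCART1 library than in any shScramble library, and of the 16 lower genes ERO1B was the one whose shMCART1 libraries also all lay below the oeNC libraries.

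SSR1, a subunit of the TRAP complex beside the channel, read 53.7, 65.6 and 57.3 TPM in shScramble and 35.6, 46.0 and 25.7 in shMCART1 (-0.74 ± 0.17 SE, adjusted p = 0.0156), and SPCS3, the core subunit of the signal peptidase complex, read 21.3, 28.6 and 20.1 TPM and then 13.0, 14.4 and 9.52 (-0.87 ± 0.20 SE, adjusted p = 0.0159). Neither gene overlapped between the groups. The other lower genes were DNAJB11, DNAJC3, DNAJC10, CANX, PDIA4, PDIA6, TXNDC5, SEL1L and EDEM1, with log2 changes from -0.94 (DNAJC10) to -0.25 (PDIA4). CALR, P4HB, HYOU1, SDF2L1, SYVN1 and SEC61A1, which were not called, had log2 changes from 0.02 to 0.31. XBP1 read 193, 192 and 198 TPM against 167, 185 and 156 (-0.20 ± 0.071 SE, adjusted p = 0.0506). ATF6 read 18.3, 23.2 and 21.6 against 16.1, 18.3 and 11.4 TPM (-0.45 ± 0.17 SE, adjusted p = 0.0519). ERN1 read 4.24, 3.16 and 3.47 against 3.08, 4.68 and 2.23 TPM, with overlap (-0.13 ± 0.19 SE, adjusted p = 0.602). None of these regulators was called.

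This comparison rested on single libraries. Without shScramble replicate 2, 0 of the 39 genes and 2 of all genes were called. There 19 of the 39 and 5106 of all 14611 genes had an unadjusted limma p under 0.05. Without shMCART1 replicate 3, 3 of the 39 were lower, beside 5.73% of all genes. Without shMCART1 replicate 2, 23 were lower, beside 36.4% of all genes. In a fit of only these 2 groups 0 of the 39 and 0 of all genes were called by limma. At an unadjusted limma p under 0.05 there were 19 of the 39 and 5803 of all 14696 genes. When the filter was also applied within these 2 groups, a setting added after the data were seen, 10 were lower. There 1788 of 13893 genes were called in either direction.

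The untreated changes moved with the GC content of the transcript. Across all genes tested the Spearman correlation of log2 change with GC content was 0.777 for the knockdown and -0.801 for overexpression without MPP+, and 0.484 and -0.603 under MPP+. Across the 39 genes it was 0.707, -0.81, 0.487 and -0.521 (descriptions over genes, which are not independent and share the same libraries). Transcript GC content of the 39 ran from 37.0% (ERO1B) and 37.5% (DNAJC10) to 59.8% (CRELD2) and 66.2% (SDF2L1), and that of HSPA5 was 46.0%. With each library's GC trend removed, 6 of the 39 genes were lower and 1 higher in the untreated knockdown (median log2 change -0.03), where 5.26% and 3.48% of all genes were called in these directions. The 6 were HSP90B1, PDIA4, TXNDC5, EDEM1, SERP1 and SSR1, and HSPA5 was no longer among them (-0.04).

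**Figure D3:**
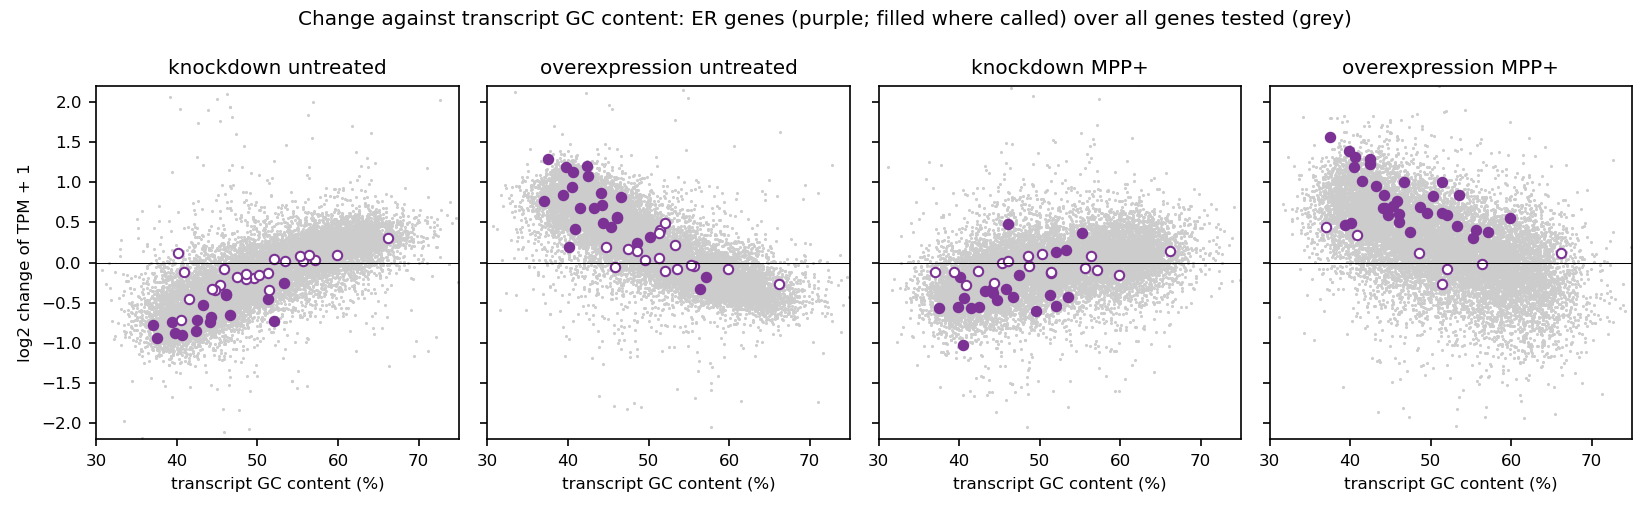
Log2 change of TPM + 1 (y axis) against transcript GC content in percent (x axis) in the 4 comparisons, with all genes tested in grey and the 39 ER genes in purple, filled where called; genes with larger changes than the y axis shows are left out. The ER genes follow the slope of all genes, upwards in the knockdown and downwards in overexpression, and lie above the grey cloud's centre in overexpression under MPP+.

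Overexpression without MPP+ gave the opposite picture. Of the 39 genes, 21 were higher in oeMCART1 than in oeNC and 2 lower, where 48.2% of all genes were called, 33.5% higher and 14.7% lower. The median log2 change was 0.40 for the 39 and 0.16 for all genes. Chaperones and cochaperones (7 of 10) and translocation genes (7 of 10) made up most of the higher genes, with 4 of 7 disulfide enzymes, 1 of 2 lectins, 1 of 6 degradation genes and, among the regulators, ATF6. Under median-of-ratios scaling the median change over all genes went from 0.16 to -0.02, and 16 of the 39 were higher and 9 lower, where 26.2% and 25.9% of all genes were. With the GC trend removed there were 9 and 4, beside 8.45% and 7.92% of all genes.

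HSP90B1 read 152, 239 and 203 TPM in oeNC and 422, 475 and 458 in oeMCART1 (log2 change 1.21 ± 0.18 SE, limma adjusted p = 0.0041). DNAJC10, a reductase that works with BiP, read 3.0, 5.67 and 2.96 TPM and then 10.6, 10.3 and 10.95 (1.30 ± 0.25 SE, adjusted p = 0.00449). SPCS3 read 13.9, 24.7 and 16.0 TPM and then 40.2, 41.1 and 43.6 (1.19 ± 0.20 SE, adjusted p = 0.0041). In these 3 genes the oeMCART1 libraries lay close together and above the highest oeNC library, which was replicate 2 each time. DNAJC3, an inhibitor of PERK and BiP cochaperone, read 4.23, 7.53 and 5.01 TPM and then 12.9, 12.9 and 13.5 (1.13 ± 0.22 SE, adjusted p = 0.00455). SEL1L, the scaffold of the HRD1 ubiquitin ligase, read 3.54, 6.29 and 4.58 TPM and then 11.2, 11.1 and 10.9 (1.08 ± 0.22 SE, adjusted p = 0.005). SSR1 read 38.5, 47.3 and 45.3 TPM and then 81.0, 81.1 and 79.2 (0.87 ± 0.17 SE, adjusted p = 0.00449), and SERP1 26.5, 39.0 and 31.9 and then 51.5, 54.8 and 53.8 (0.72 ± 0.14 SE, adjusted p = 0.0049). These 7 genes again did not overlap between the groups.

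HSPA5 read 233, 322 and 296 TPM in oeNC and 405, 425 and 405 in oeMCART1, without overlap (0.55 ± 0.13 SE, adjusted p = 0.00745), and with the GC trend removed its change was 0.11 and not called. ATF6 read 12.6, 17.9 and 16.5 TPM and then 25.0, 25.2 and 25.8 (0.67 ± 0.17 SE, adjusted p = 0.00844), which fell to -0.02 with the trend removed. XBP1 read 186, 206 and 202 TPM and then 204, 203 and 198 (0.03 ± 0.071 SE, adjusted p = 0.766), so its groups overlapped. ERN1 read 2.93, 3.09 and 2.63 TPM and then 3.20, 2.61 and 3.35, also overlapping (0.06 ± 0.19 SE, adjusted p = 0.813). The 2 lower genes were SYVN1, the HRD1 ligase itself, at 21.4, 20.7 and 21.8 TPM in oeNC and 17.1, 17.5 and 15.7 in oeMCART1 (-0.33 ± 0.084 SE, adjusted p = 0.0098), and P4HB at 546, 559 and 579 TPM and then 496, 485 and 506 (-0.18 ± 0.059 SE, adjusted p = 0.0259). Of the 21 higher genes, 18 also lay above every shScramble library, among them HSPA5, HSP90B1 and ATF6, and 1, SEC61B, had a mean below that of shScramble.

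**Figure D4:**
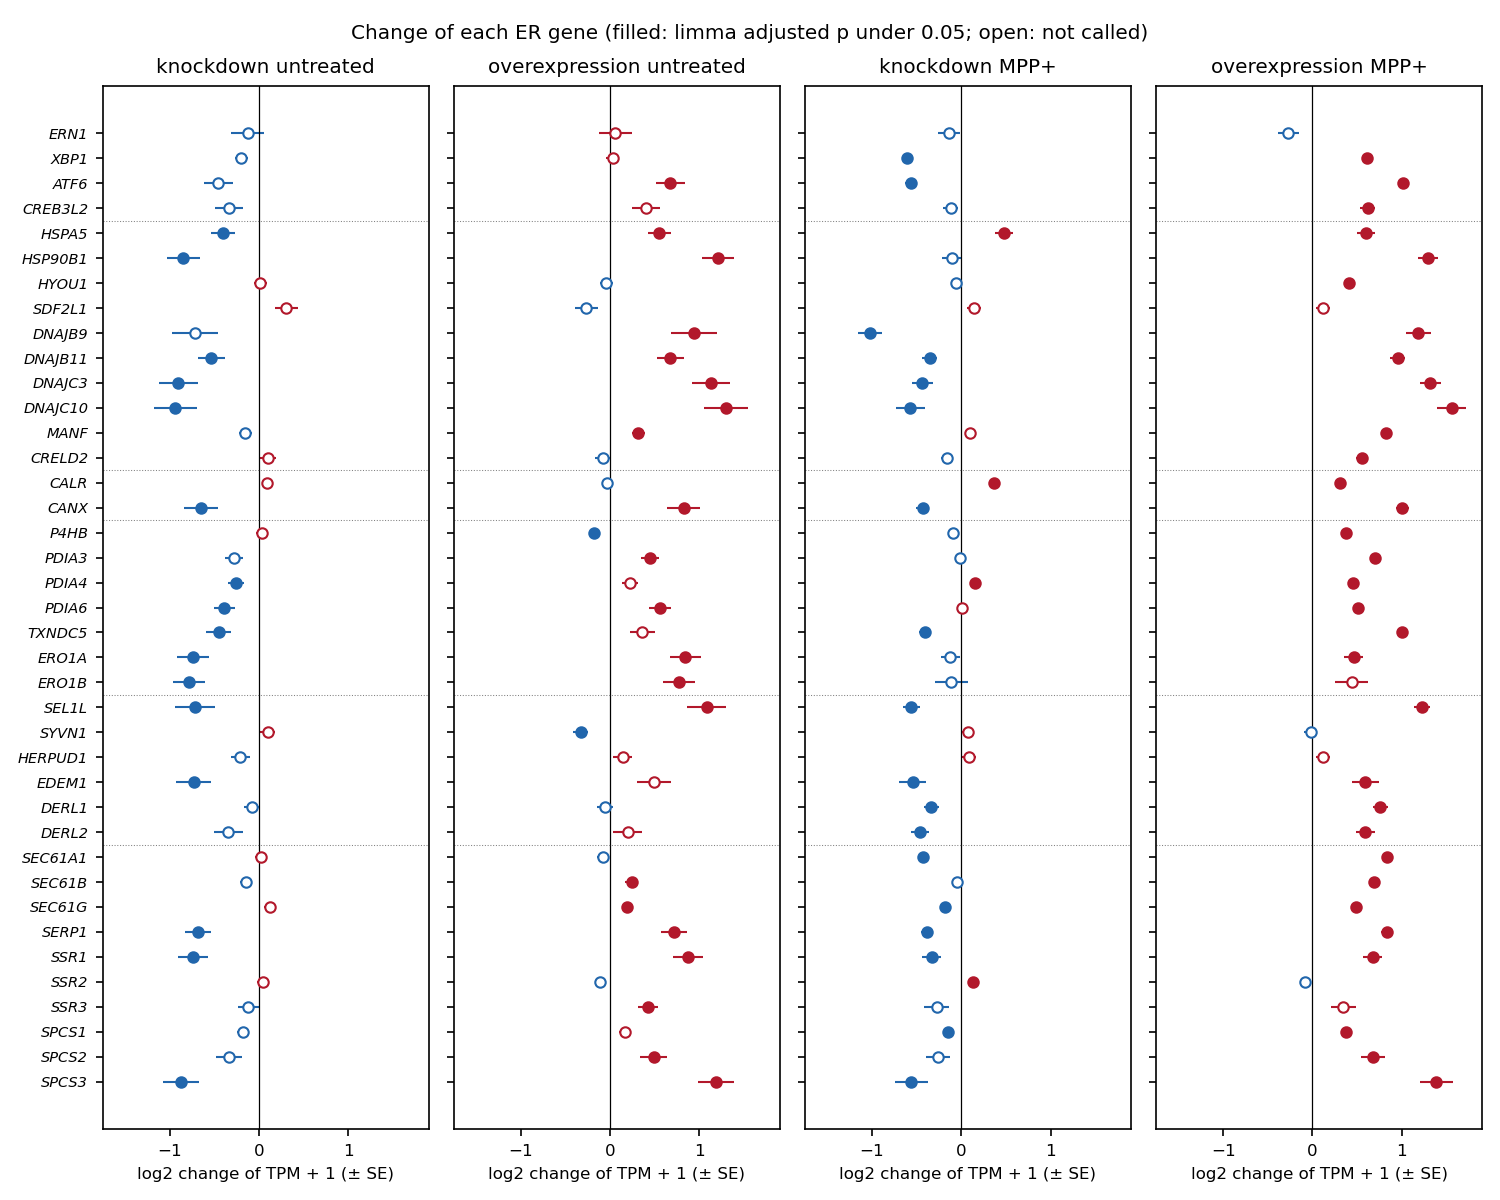
Log2 change of TPM + 1 ± SE (x axis) of each of the 39 genes (y axis, grouped by role from regulators at the top to translocation at the bottom) in the 4 comparisons; red is higher and blue lower than the control, filled where the limma adjusted p was under 0.05. In overexpression under MPP+ 32 genes are filled red, and in the knockdown under MPP+ 18 are filled blue and 4 red.

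Knockdown under MPP+ gave calls in both directions. Of the 39 genes, 18 were lower in shMCART1 than in shScramble and 4 were higher, where 33.1% of all 14895 genes tested were called, 22.2% lower and 10.8% higher. The 4 higher genes are 10.3% of the 39, near the share of all genes. The median log2 change was -0.16 for the 39 and -0.08 for all genes. Median-of-ratios scaling gave 14 lower and 8 higher, where 14.96% and 17.4% of all genes were called, and removal of the GC trend 10 and 8, where 14.4% and 13.3% were. The higher genes were the lumenal chaperone HSPA5, the lectin CALR, the isomerase PDIA4 and the TRAP subunit SSR2, and the lower ones included both transcription factors XBP1 and ATF6.

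HSPA5 read 172, 169 and 176 TPM in shScramble under MPP+ and 272, 237 and 214 in shMCART1 (log2 change 0.47 ± 0.10 SE, limma adjusted p = 0.00452). CALR read 402, 399 and 407 TPM and then 524, 524 and 515 (0.37 ± 0.038 SE, adjusted p = 0.000101). PDIA4, a BiP-associated isomerase, read 153, 148 and 158 TPM and then 176, 169 and 168 (0.16 ± 0.039 SE, adjusted p = 0.00986). All 3 were higher in every shMCART1 library than in any library of shScramble or oeNC under MPP+. SSR2 read 354, 348 and 363 TPM and then 388, 393 and 390 (0.14 ± 0.033 SE, adjusted p = 0.00904), but 400, 384 and 413 in oeNC, which overlapped shMCART1. These 4 calls held with the GC trend removed (0.63 for HSPA5), with median-of-ratios scaling (0.58 for HSPA5), with quantile normalisation, in a fit of only the 2 groups and without each library in turn.

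XBP1 read 250, 252 and 256 TPM in shScramble and 165, 163 and 170 in shMCART1 under MPP+ (-0.61 ± 0.037 SE, adjusted p = 9.41e-06). It was the 1 gene of the 18 whose shMCART1 libraries all lay below the oeNC libraries too (189, 195 and 205 TPM). ATF6 read 33.5, 35.6 and 36.8 TPM and then 24.7, 22.9 and 23.0 (-0.57 ± 0.064 SE, adjusted p = 0.000164), against 22.9, 22.9 and 20.8 in oeNC. ERN1 read 7.35, 6.67 and 6.89 TPM and then 6.29, 6.24 and 6.22 (-0.14 ± 0.12 SE, adjusted p = 0.419), and its groups did not overlap although it was not called. DNAJB9, an XBP1 target that represses IRE1, read 4.84, 6.35 and 6.43 TPM and then 2.54, 2.04 and 2.54 (-1.02 ± 0.14 SE, adjusted p = 0.000426), the largest fall of the 39.

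SEC61A1, the pore of the channel, read 108, 110 and 121 TPM in shScramble and 80.7, 84.5 and 85.8 in shMCART1 (-0.43 ± 0.061 SE, adjusted p = 0.000514), and in oeNC it read 76.8, 83.2 and 90.4. TXNDC5, a disulfide isomerase, read 83.3, 91.0 and 92.7 TPM and then 62.8, 66.0 and 71.7 (-0.41 ± 0.061 SE, adjusted p = 0.000644). SEL1L read 6.77, 7.30 and 7.25 TPM and then 3.94, 4.72 and 4.9 (-0.56 ± 0.091 SE, adjusted p = 0.00106), and SERP1 36.3, 37.5 and 37.1 and then 26.8, 28.7 and 28.9 (-0.38 ± 0.063 SE, adjusted p = 0.00114). In all 4 the shMCART1 libraries lay below those of shScramble without overlap. For 15 of the 18 lower genes the shMCART1 mean was at or above that of oeNC under MPP+. The exceptions were XBP1, DNAJB9 and DERL2. HSP90B1 read 118, 118 and 121 TPM against 107, 109 and 114 and was not called (-0.11 ± 0.11 SE, adjusted p = 0.498).

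Overexpression under MPP+ raised most of the list. Of the 39 genes, 32 were higher in oeMCART1 than in oeNC and 0 lower by limma (2, ERN1 and SSR2, were lower at an unadjusted p under 0.05), where 60.9% of all genes were called, 46.7% higher and 14.2% lower. The median log2 change was 0.61 for the 39 and 0.26 for all genes. Higher were 3 of 4 regulators, 9 of 10 chaperones and cochaperones, both lectins, 6 of 7 disulfide enzymes, 4 of 6 degradation genes and 8 of 10 translocation genes. Median-of-ratios scaling brought the median over all genes to -0.01 and gave 26 higher and 4 lower of the 39, where 26.65% and 29.02% of all genes were called. Removal of the GC trend gave 25 and 4, beside 25.8% and 21.7% of all genes, with a median of 0.34 for the 39.

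XBP1 read 189, 195 and 205 TPM in oeNC and 305, 298 and 300 in oeMCART1 (log2 change 0.61 ± 0.037 SE, limma adjusted p = 4.74e-07). ATF6 read 22.9, 22.9 and 20.8 TPM and then 47.6, 47.3 and 43.1 (1.02 ± 0.064 SE, adjusted p = 5.65e-07). Both were also above every shScramble library of this table. ERN1 read 7.74, 5.85 and 4.93 TPM and then 5.12, 5.02 and 4.52, with overlap and no call (-0.27 ± 0.12 SE, adjusted p = 0.073). TXNDC5 read 63.0, 67.8 and 66.3 TPM and then 138, 133 and 127 (1.00 ± 0.061 SE, adjusted p = 4.67e-07). PDIA3, the isomerase that serves glycoproteins, read 167, 165 and 161 TPM and then 279, 264 and 262 (0.70 ± 0.042 SE, adjusted p = 4.57e-07). SEC61B, a small channel subunit, read 216, 217 and 214 TPM and then 343, 363 and 343 (0.69 ± 0.043 SE, adjusted p = 5.31e-07). In each of these 3 the lowest oeMCART1 library exceeded the highest of either control.

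MANF, a secreted BiP-binding factor, read 95.2, 101 and 103 TPM in oeNC and 176, 179 and 177 in oeMCART1 under MPP+ (0.83 ± 0.054 SE, adjusted p = 6.06e-07). SEC61A1 rose from 83.5 ± 6.80 to 150 ± 1.42 TPM, 1.79-fold, with libraries at 148, 149 and 151. HSPA5 read 159, 135 and 118 TPM and then 219, 204 and 198 (0.60 ± 0.10 SE, adjusted p = 0.0003). With the GC trend removed the change of HSPA5 was 0.16 and was not called. HSP90B1 read 71.1, 65.4 and 49.8 TPM and then 173, 149 and 136, 2.45-fold higher (1.29 ± 0.11 SE, adjusted p = 3.26e-06), and 0.67 with the trend removed, still called. Both chaperones were above every oeNC and every shScramble library in oeMCART1. Across the list, 27 of the 32 higher genes lay above every shScramble library as well, and 20 kept their call under removal of the GC trend, both scalings and each left-out library. The share of all called genes that kept their call in this way was not counted. DNAJC10 had the largest change (1.56 ± 0.16 SE, 2.95-fold). The 7 genes without a call were ERN1, SDF2L1, ERO1B, SYVN1, HERPUD1, SSR2 and SSR3, with log2 changes from -0.27 to 0.44.

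The difference between the effects with and without MPP+ was tested in 1 model over all 24 libraries. For the knockdown, 3 of the 39 genes had a higher effect under MPP+ and 3 a lower one, where 3.87% of 15653 genes were called, 1.72% and 2.15% in these directions. HSPA5 went from -0.40 without to 0.47 with MPP+, a difference of 0.88 ± 0.17 SE (limma adjusted p = 0.0094). This difference stayed called under GC removal (0.69), both scalings, the fit of only the 4 groups concerned and each left-out library. The fall of HSPA5 without MPP+ was less firm. It was called in 1 of 6 fits with a library left out, and not under median-of-ratios scaling (-0.19) or GC removal (-0.04). CALR (0.28) and PDIA4 (0.41) had higher effects too, and CALR was not called under median-of-ratios scaling (0.19, adjusted p = 0.272). Lower effects under MPP+ were found for SEC61A1 (-0.45, adjusted p = 0.00971), XBP1 (-0.41, adjusted p = 0.0066) and SEC61G (-0.30, adjusted p = 0.0301). In the fit of only the 4 groups HSPA5 was the 1 gene of the 39 still called. XBP1 mRNA, that of the regulator, was thus lower and HSPA5 mRNA higher in the knockdown under MPP+.

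For overexpression, 12 of the 39 genes had a higher effect under MPP+ and 0 a lower one by limma (16 and 0 at an unadjusted p under 0.05), where 17.8% of all genes were called, 12.6% higher and 5.24% lower. An unadjusted limma p under 0.05, in either direction, was reached by 4592 of all 15653 genes. SEC61A1 went from -0.08 without MPP+ to 0.84 with it (difference 0.92 ± 0.090 SE, limma adjusted p = 2.8e-06) and DERL1, a channel-like protein of ER-associated degradation, from -0.06 to 0.76 (0.82 ± 0.12 SE, adjusted p = 0.00016). XBP1 went from 0.03 to 0.61 (0.58 ± 0.076 SE, adjusted p = 3.55e-05), P4HB from -0.18 to 0.38 (0.56 ± 0.071 SE, adjusted p = 2.93e-05) and TXNDC5 from 0.36 to 1.00 (0.64 ± 0.16 SE, adjusted p = 0.00801). HSPA5 and HSP90B1 had changes of 0.55 and 1.21 without and 0.60 and 1.29 with MPP+, and the differences of 0.05 ± 0.17 and 0.08 ± 0.23 SE were not called. SEC61A1 and DERL1, with the largest differences of the 39, had changes near 0 without MPP+. The change of SLC25A51 itself was 4.39 without and 6.63 with MPP+ (difference 2.23 ± 0.18 SE, adjusted p = 1.71e-07), and its level in oeNC was 31.6 ± 3.48 and 8.49 ± 0.837 TPM. Its part in these differences was not tested.

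**Figure D5:**
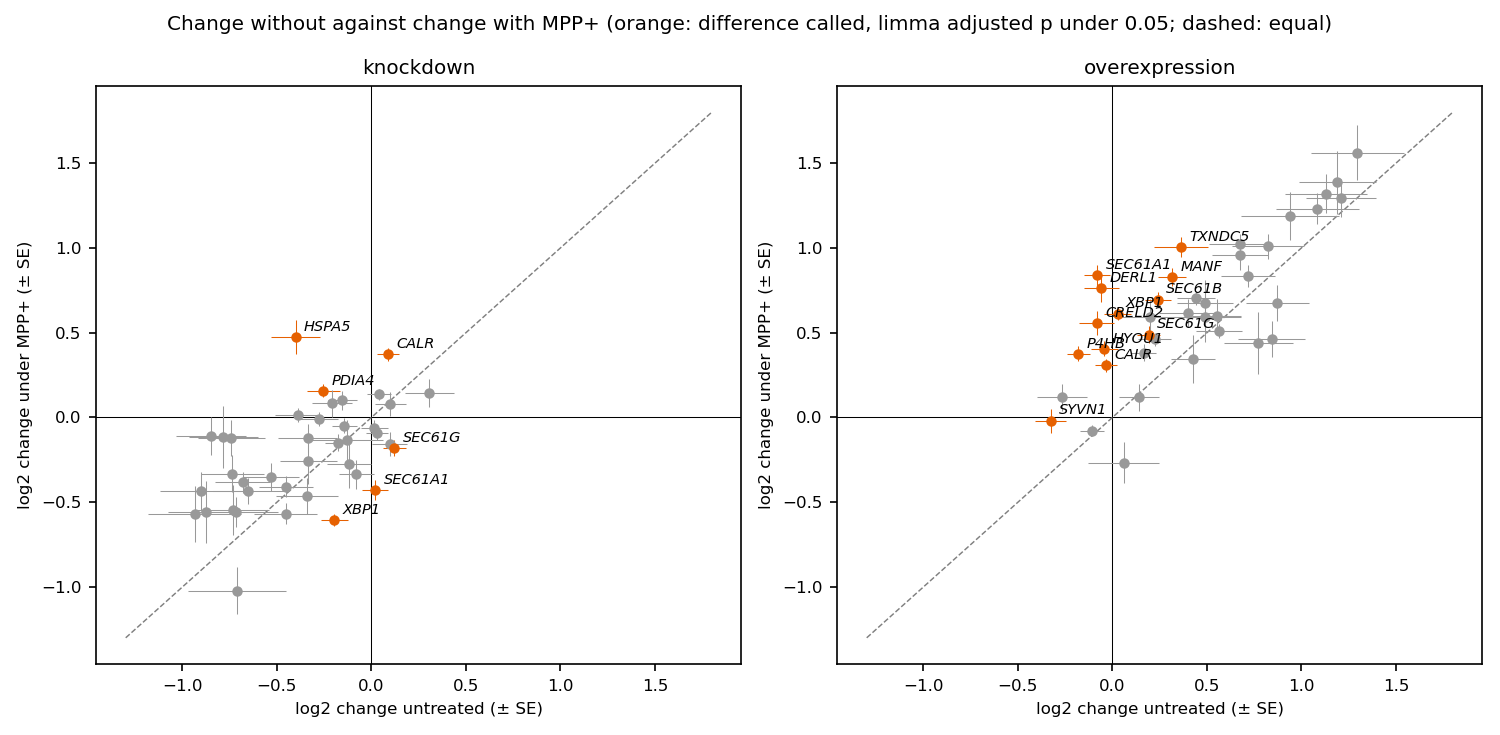
Log2 change ± SE without MPP+ (x axis) against that with MPP+ (y axis) for each of the 39 genes, knockdown on the left and overexpression on the right; the dashed line marks equal changes and orange the genes whose difference was called. BiP (HSPA5) lies far above the line in the knockdown, and SEC61A1 and DERL1 lie above it in overexpression.

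Genes with the ER stress element were set beside those without. Of the 9 with it, 6 were higher in overexpression without MPP+ and 8 under MPP+, and 6 were lower in the untreated knockdown. In the knockdown under MPP+ 2 of the 9 (HSPA5, CALR) were higher and 3 (XBP1, CANX, SERP1) lower. Of the 27 members whose windows were read and held no such element, 14 and 21 were higher in overexpression without and with MPP+, 10 were lower in the untreated knockdown, and under MPP+ 2 were higher and 13 lower in the knockdown. These 27 include members with the shorter form or the XBP1-binding core. Of all genes tested, 33.5% and 46.7% were higher in overexpression without and with MPP+. In the knockdown 25.6% of all genes were lower without MPP+, and 10.8% were higher and 22.2% lower with it. Median log2 changes with and without the element were 0.6 and 0.618 in overexpression under MPP+ and -0.113 and -0.257 in the knockdown under MPP+, and the difference was not tested. SDF2L1 and HERPUD1, which carry the shorter form, were called in 0 of the 4 comparisons, and HYOU1, which carries it too, was called in 1, higher in overexpression under MPP+ (0.40 ± 0.045 SE, limma adjusted p = 1.48e-05).

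Of 103 other ER genes in 7 lists, also chosen with earlier results of these data known, 101 were tested in each table. In overexpression under MPP+ 71 were higher and 13 lower, and in the knockdown under MPP+ 12 higher and 43 lower, with median log2 changes of 0.45 and -0.17. As shares these were 70.3% and 12.9%, beside 46.7% and 14.2% of all genes, and 11.9% and 42.6%, beside 10.8% and 22.2%. Without MPP+ 45 were higher and 17 lower in overexpression (44.6% and 16.8%, beside 33.5% and 14.7%), and 13 higher and 33 lower in the knockdown (12.9% and 32.7%, beside 8.64% and 25.6%). The oligosaccharyltransferase list, which adds N-glycans at the channel, had 11 of 12 genes higher in overexpression under MPP+, among them its subunit RPN2 (0.89 ± 0.047 SE, limma adjusted p = 2.61e-07). The list of further translocation genes had 14 of 16 higher, with the signal peptidase catalytic subunit SEC11C at 0.98 ± 0.049 SE (adjusted p = 1.85e-07), and SEC11C was lower in the knockdown under MPP+ (-0.42 ± 0.049 SE, adjusted p = 0.000184). Among further degradation genes 15 of 21 were higher, with the ubiquitin-conjugating enzyme UBE2J1 at 1.24 ± 0.092 SE (adjusted p = 1.37e-06), and 12 of 21 were lower in the knockdown, where UBE2J1 was at -0.70 ± 0.092 SE (adjusted p = 0.00036).

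Of the PERK arm, 3 of 11 tested genes were higher (27.3%, beside 10.8% of all genes) and 6 lower (54.5%, beside 22.2%) in the knockdown under MPP+. The transcription factor ATF3 was at 1.21 ± 0.18 SE (limma adjusted p = 0.000594) and the pseudokinase TRIB3 at -0.98 ± 0.077 SE (adjusted p = 2.61e-05). In overexpression under MPP+ 5 were higher (45.5%, beside 46.7% of all genes) and 3 lower (27.3%, beside 14.2%), with SESN2, a stress-induced regulator of growth signalling, at 1.34 ± 0.11 SE (adjusted p = 2.77e-06) and ATF4 itself at -0.24 ± 0.037 SE (adjusted p = 0.000133). Of the list of ATF6 processing proteases and CREB3 family factors, 6 of 10 were higher (60%, beside 46.7% of all genes) in overexpression under MPP+. The lower ones were 2 (20%, beside 14.2%). MBTPS2, the protease that releases ATF6, was at 1.02 ± 0.10 SE (adjusted p = 8.05e-06) and CREB3L1 at -1.02 ± 0.088 SE (adjusted p = 3.19e-06).

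Markers of other cells were measured beside these changes. The summed level of 6 mesenchymal markers ran from 2.92 to 3.76 TPM in oeMCART1 under MPP+ against 11.1 to 13.6 in oeNC, and from 24.2 to 29.7 in untreated shMCART1 against 17.4 to 23.0 in shScramble. In the knockdown under MPP+ it ran from 14.1 to 15.5 TPM against 8.53 to 11.3, most of it COL1A1, with COL1A2 at most 0.09 TPM. The sum of 4 plasma cell markers, a secretory cell type rich in ER, ran from 7.95 to 8.41 TPM in oeMCART1 under MPP+ and from 9.99 to 10.9 in oeNC. In shMCART1 it ran from 15.7 to 18.5 TPM against 12.2 to 13.2 in shScramble without MPP+, and from 11.7 to 12.9 against 9.35 to 10.7 with it, nearly all SDC1, with JCHAIN at most 0.16 TPM and TNFRSF17 at most 0.17. The sum of 7 blood markers ran from 9.60 to 15.2 TPM in oeMCART1 under MPP+ and from 20.5 to 27.9 in oeNC, mostly HBA1, with PTPRC at most 0.17 and CD3E at most 0.05. The sum of the neuroblastoma markers ran from 12.9 to 13.7 TPM in oeMCART1 and from 10.5 to 12.5 in oeNC under MPP+. Their part in the ER gene changes was not tested, and in bulk RNA fewer cells of a type and less RNA per cell cannot be told apart.

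Some of the 39 genes share sequence with neighbours. In GENCODE 29, 21 have an antisense gene over an exon, 6 a gene on the same strand, such as BLOC1S5-TXNDC5 over TXNDC5, and 4 a named processed pseudogene. The sources used here do not say whether counting used the strand, and reads of such partners then cannot be told apart from those of the genes described. HSPA5 has no gene over its exons on either strand (chr9:125234853-125241330, minus strand). XBP1 (chr22:28794555-28800597, minus strand) has none either, but has 1 named pseudogene.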

How the data were processed

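Polyadenylated RNA was sequenced in 24 libraries of 8 groups, in strand-specific libraries per the labels' protocols. The authors deposited TPM values, 1 table for the 12 untreated and 1 for the 12 MPP+ libraries. Builds listed in the submitters' processing notes are GRCm38, mm10 and GRCh38, with no role stated, and an aligner or annotation is not given in the sources used here. TPM keep no depth, so depth is unknown and no counting interval was given. Of 63266 and 36783 entries, 25 and 42 without a gene identifier were left out. The tables share 31524 identifiers.

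Groups came from the sample titles. Values were taken as log2(TPM + 1), with a pseudocount of 1, so fold changes of low genes are understated. The test was limma 3.58.1, run on genes that reached 1 TPM in 3 or more libraries of the table (R 4.3.3, trended empirical Bayes variance, the 4 groups of a table in 1 fit, all 24 libraries for differences of effects), with Benjamini-Hochberg adjustment over all genes and calls at 0.05. Gene positions and GC content are those of GENCODE 29, not necessarily the authors' annotation, and promoters from RefSeq (GRCh38.p14). Python 3.11.15, pandas 2.3.3, numpy 2.4.6, scipy 1.17.1 and matplotlib 3.10.9 were used.

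The members and lists were chosen with earlier results of these data known. Per-library values are given for HSPA5, XBP1, ATF6, ERN1 and the 6 called members with the smallest p per direction in the 4 comparisons within a table. The rule allowed up to 3 genes per other ER list, direction and comparison, and only the 1 with the smallest p was kept after values were seen. Same-numbered libraries of compared groups correlated at -0.0729 to 0.211 in their deviations, so numbers were not taken as pairs. Alternatives were a pseudocount of 0.1, no filter or 5 TPM, median-of-ratios scaling, quantile normalisation, removal of the GC trend, a replicate block, fits limited to the groups compared, and each library left out in turn. A fit of the groups compared with the filter applied within them was added after the data were seen. On simulated data, with 50 changed genes per fold, the fit was tested too: in the 4 comparisons within a table it recovered 8 to 30% at 1.25-fold, 38 to 76% at 1.5-fold and 82 to 96% at 2-fold. Far fewer genes were changed there than were called in the data, and the simulated noise was independent between genes, without a GC trend. These rates therefore do not give the power or error of the calls reported here. One gene of the marker list is not reported here.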

Additional observations from a re-analysis of the deposited data

Results flagged for a closer look

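Effects that differed between cells without and with MPP+, by limma's test of the difference itself, are given here for each of the 39 genes that passed (log2 scale, MPP+ minus untreated). In the knockdown the differences were 0.876 for HSPA5, 0.411 for PDIA4, 0.285 for CALR, -0.301 for SEC61G, -0.409 for XBP1 and -0.447 for SEC61A1. Of these, HSPA5 kept its call under every alternative run, and XBP1 and SEC61A1 under all but the fit of only the 4 groups concerned. SEC61G lost it without 7 of the 12 libraries in turn.

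In overexpression the differences were 0.917 for SEC61A1, 0.820 for DERL1, 0.642 for TXNDC5, 0.640 for CRELD2, 0.584 for XBP1, 0.555 for P4HB, 0.512 for MANF, 0.455 for SEC61B, 0.448 for HYOU1, 0.342 for CALR, 0.308 for SYVN1 and 0.296 for SEC61G. CALR, SEC61G and SYVN1 each lost the call under at least 1 of median-of-ratios scaling, quantile normalisation and removal of the GC trend. The knockdown and overexpression differences do not share control libraries, but both came from 1 model over all 24 libraries. XBP1, SEC61A1 and SEC61G passed in both with opposite signs, and CALR with the same sign. How many of all genes passed in both was not counted.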

How the results depend on the processing

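Counts of the 39 genes called, higher and lower, were 0 and 16 in the untreated knockdown, 21 and 2 in untreated overexpression, 4 and 18 in the knockdown under MPP+, 32 and 0 in overexpression under MPP+, 3 and 3 for the knockdown difference and 12 and 0 for the overexpression difference. Leaving out each library in turn gave 0 to 1 and 0 to 23, 16 to 25 and 1 to 2, 4 to 4 and 12 to 17, 32 to 34 and 0 to 1, 1 to 10 and 2 to 3, and 11 to 14 and 0 to 0 in the same order. Of all genes, these fits called 0.0068 to 13.2% higher and 0.0068 to 36.4% lower in the untreated knockdown. In untreated overexpression they called 20.1 to 37.1% and 7.25 to 15.5%. Under MPP+ it was 7.78 to 9.57% and 14.8 to 21.6% in the knockdown, and 42.4 to 45.8% and 12.7 to 13.7% in overexpression. For the differences it was 0.796 to 10.5% and 0.860 to 5.27%, and 9.89 to 12.5% and 3.73 to 5.78%. The knockdown difference went to 10 higher without shMCART1 replicate 2 (10.5% of all genes) and to 1 without shMCART1_MPP replicate 1 (0.796%). In the untreated knockdown there were 4 lower with no filter (3.08% of all genes), and 6 lower and 1 higher with the GC trend removed. There were 4 higher with median-of-ratios scaling (20.1% of all genes), 0 lower in the fit of only 2 groups and 10 lower when the filter was applied within these groups. In untreated overexpression there were 9 lower with median-of-ratios scaling, and 9 higher and 4 lower with the GC trend removed. In the knockdown under MPP+ there were 8 higher with median-of-ratios scaling, and 8 higher and 10 lower with the GC trend removed. In overexpression under MPP+ there were 4 lower with median-of-ratios scaling, 3 with quantile normalisation (26.4% of all genes) and 4 with the GC trend removed. For the knockdown difference there were 6 higher with the GC trend removed (3.25% of all genes), and 1 higher and 0 lower in the fit of only the groups concerned, whichever libraries the filter used. For the overexpression difference there was 1 lower with median-of-ratios scaling, 1 with quantile normalisation and 1 with the GC trend removed (8.11%, 7.43% and 11.2% of all genes). With the replicate block there were 1 higher and 21 lower, 26 and 2, 4 and 15, 33 and 0, 4 and 3, and 12 and 0. The shares of all genes there were 12.6 and 30.4%, 35.5 and 16.6%, 10.3 and 20.6%, 46.2 and 14.1%, 2.53 and 3.37%, and 13.3 and 5.69%. Whether the replicate numbers pair the libraries is not known. In both overexpression comparisons each oeMCART1 library correlated best with the oeNC library of its own number, at 0.0315 to 0.113.

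Of the 39 log2 changes, 27 kept their sign in the untreated knockdown with the GC trend removed and 32 with median-of-ratios scaling. In untreated overexpression 24 and 32 did, in the knockdown under MPP+ 32 and 34, in overexpression under MPP+ 34 and 36, for the knockdown difference 32 and 35, and for the overexpression difference 38 and 36. Those that turned sign and were called with or without the alternative were as follows, and the cause was not tested. In untreated overexpression, median-of-ratios scaling gave -0.198 for XBP1 and -0.0347 for SEC61G, and removal of the GC trend -0.184 for XBP1, -0.0246 for ATF6, -0.0442 for PDIA3, -0.0257 for SEC61B, -0.536 for SEC61G, -0.290 for SSR3 and -0.0672 for SPCS2. In the knockdown under MPP+, removal of the GC trend gave 0.174 for PDIA3, 0.216 for ERO1A and 0.150 for SEC61G. In overexpression under MPP+, median-of-ratios scaling gave -0.0221 for CALR and -0.206 for HERPUD1, and removal of the GC trend -0.225 for ERO1A and -0.194 for SEC61G. Depth is unknown, so no limit from counting can be given.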
